A study of Arabidopsis thaliana and Lotus japonicus with 44 samples.

Results

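Antisense transcripts are transcribed from the strand opposite a gene, across the same stretch of chromosome. Among the 58205 Arabidopsis transcript rows counted in roots, 593 were taken as antisense because at least 90% of their length lay under annotated exons of the other strand. Each also had to be the single transcript of its gene and to reach 10 counts in at least 1 library. Of the 25728 genes with 1 transcript, 1241 met the overlap and 593 of these the count minimum. No test between groups entered this choice, but the count minimum could be met in 1 group alone. The 593 transcripts faced 581 opposite-strand genes, and 428 of them lay under opposite exons for their whole length. By annotation, 302 members were protein coding, 255 lncRNA, 21 antisense RNA, 8 snoRNA, 3 snRNA, 2 ncRNA, 1 miscellaneous RNA and 1 pseudogene. The pairs were of several kinds, with 276 non-coding members opposite coding genes, 201 coding opposite coding, 101 coding opposite non-coding and 15 non-coding opposite non-coding. In the third kind the member is itself the coding gene of the pair, so antisense describes a position and not a function. Of the members, 438 had 1 exon, and the median length was 650 bases.

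The roots came from Arabidopsis plants 6 weeks old, grown on sterile plates with either 1/2 MS medium (MS) or low-nutrient medium (LN), which is poor in phosphorus, nitrogen and potassium. Lines 310 and 308 are independent insertions in the Col-0 background. Both carry an mCherry marker and express IPD3-Min from the Arabidopsis UBIQUITIN10 promoter. IPD3-Min is a shortened form of IPD3, a Medicago truncatula transcription factor of symbiosis, that keeps the part that binds DNA. Col-0 is the untransformed wild type, so IPD3-Min, the marker and the insertion site of 1 line cannot be told apart. Germinated spores of the arbuscular mycorrhizal fungus (AMF) Rhizophagus irregularis, or sterile water, had been added to the roots before collection. The 8 groups were 310 +AMF MS with 3 libraries, 308 +AMF MS with 4, Col-0 +AMF MS with 4, 310 -AMF MS with 3, 308 -AMF MS with 4, Col-0 -AMF MS with 4, 308 +AMF LN with 3 and Col-0 +AMF LN with 5. All plants on LN had received AMF. Each library held the pooled roots of seedlings from 1 plate, so p-values measure the spread between such pools.

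Opposite-strand transcription can act on a gene in several known ways. In plants, RNA polymerases that meet on overlapping genes can interfere with each other, antisense transcripts can recruit chromatin modifiers, as COOLAIR does at the flowering repressor FLC, and a sense and an antisense RNA that pair can be cut into small RNAs. Overlap alone does not tell which of these occurs, if any. Phosphate-poor medium sets off the phosphate starvation response, in which the transcription factor PHR1 binds the P1BS motif GNATATNC in the promoters of its target genes.

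The start regions of 3 members with large increases on LN are shown as examples of the windows searched, 2 with the P1BS motif and 1 without, chosen with their motifs known. Their opposite genes did not pass the same tests or had too few counts to be tested. AT2G31345 and AT4G01380, described below with opposite genes that did not pass either, held no match. Each window runs from 250 bases before to 50 bases after the annotated start and gives 300 bases of the member's own strand from RefSeq on TAIR10.1. Capitals mark a match to P1BS. The window of AT3G21305, annotated as coding and opposite the RNA methyltransferase gene AT3G21300, is chr3:7492730-7493029 on the plus strand. That of RLP50 (AT4G13920), a receptor like protein opposite the lncRNA AT4G13918, is chr4:8043553-8043852 on the plus strand. That of AT1G05787, an lncRNA opposite the coding gene AT1G23110, is chr1:8197293-8197592 on the plus strand and holds no match.
AT3G21305: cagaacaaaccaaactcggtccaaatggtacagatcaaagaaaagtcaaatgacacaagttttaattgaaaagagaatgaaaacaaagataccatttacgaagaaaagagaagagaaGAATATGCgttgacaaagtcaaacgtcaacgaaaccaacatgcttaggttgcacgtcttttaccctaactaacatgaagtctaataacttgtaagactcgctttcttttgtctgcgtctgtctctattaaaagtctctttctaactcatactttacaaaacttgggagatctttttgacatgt
RLP50: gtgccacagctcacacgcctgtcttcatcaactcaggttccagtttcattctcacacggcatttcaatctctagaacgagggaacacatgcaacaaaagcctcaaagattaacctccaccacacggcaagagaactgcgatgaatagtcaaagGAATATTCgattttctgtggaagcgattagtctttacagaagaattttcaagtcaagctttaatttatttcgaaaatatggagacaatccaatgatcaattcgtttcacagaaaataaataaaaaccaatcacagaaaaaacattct
AT1G05787: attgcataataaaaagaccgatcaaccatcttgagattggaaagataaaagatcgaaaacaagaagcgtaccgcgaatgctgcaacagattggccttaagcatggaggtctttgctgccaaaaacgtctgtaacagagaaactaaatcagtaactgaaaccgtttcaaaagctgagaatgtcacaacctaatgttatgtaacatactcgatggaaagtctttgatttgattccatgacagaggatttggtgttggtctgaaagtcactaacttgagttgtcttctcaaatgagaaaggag
The motif reads the same on both strands, so each match was counted once. It was present in 2239 of 36630 start windows of all genes (6.11%) and in 32 of the 593 members (5.40%). Of the 61 members higher on LN in Col-0, 8 held it (13.1%), against 6 of the 109 lower ones (5.50%). Among the 32 members higher on LN in both Col-0 and line 308, 6 held it (18.75%), namely AT1G18975, AT1G29540, AT1G31485, AT3G21305, RLP50 and ARO3, against 1 of the 40 lower in both (2.5%). Coding members made up 56 of the 61 higher and 63 of the 109 lower members in Col-0, so the 2 sides differ in kind. The share among all genes higher or lower on LN is not given here. These shares thus cannot be called particular to the members. A match describes these letters and is no measured binding site.

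Library totals ran from 13125046 to 14790061 counts, and the members took between 1.06% and 1.28% of them. Most members were low. Their median level was 1.77 CPM (counts scaled to library size, with TMM factors), 218 of 593 had a mean under 1 CPM, and 153 of these were among the 276 non-coding members opposite coding genes. At the count minimum, 16 members had exactly 10 counts in their highest library, 48 had between 10 and 12, and 31 reached 10 counts in only 1 library, while 295 reached it in all 30. At the overlap limit, 29 members had under 92% of their length under opposite exons, and the lowest had 90.03%. Of the shoot markers of photosynthesis, RBCS1A, LHCB1.3, LHCB2.1, LHCB3 and PSAD-1, the summed level was 168 to 346 CPM in 308 +AMF LN, 459 to 613 in Col-0 +AMF LN, 510 to 896 in 308 +AMF MS and 1497 to 1785 in Col-0 +AMF MS. The root markers were SCR, SHR, WER, CASP1, COBL9, EXPA7 and the phosphate transporter gene AT5G43350. All 7 were detected, with sums of 1752 to 2055 CPM in 308 +AMF LN, 2081 to 3476 in Col-0 +AMF LN, 1248 to 1821 in 308 +AMF MS and 1021 to 1563 in Col-0 +AMF MS. On LN, 2 of the 7 were higher in line 308 and 4 in Col-0, with median log2 changes of 0.35 and 0.71, and none were lower. AT5G43350 is also among the phosphate genes looked up below, so on LN these values do not measure root tissue alone. The part of these marker differences in the values of the members was not tested. RNA from whole roots cannot tell fewer cells of a type from less RNA per cell.

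Most antisense members were less abundant per kilobase than the gene they faced. The comparison was made for 341 pairs whose opposite gene has 1 transcript row and whose counts summed to 10 or more in every library, because read pairs shared by several transcripts had been dropped in counting. In 227 of them the antisense member was below its opposite gene per kilobase in all 30 libraries, and in 88 it was above in all 30. The median antisense level per kilobase was 13.7% of the opposite gene. Where the opposite gene is itself a member, a locus can enter once for each strand, above under one and below under the other. Among the 275 pairs whose opposite gene is no member, 196 were below and 57 above in all 30 libraries, with a median of 12.5%. By kind, non-coding members opposite coding genes had a median of 7.17% over 175 pairs, with 158 below and 6 above in every library. Coding members opposite coding genes had 21.8% over 106 pairs, with 64 below and 31 above. Coding members opposite non-coding genes stood at 1590% over 53 pairs, with 5 below and 45 above. By share, 84 pairs were under 5%, 57 between 5% and 10%, 90 between 10% and 50%, 14 between 50% and 100% and 96 over 100%.

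**Figure D1:**
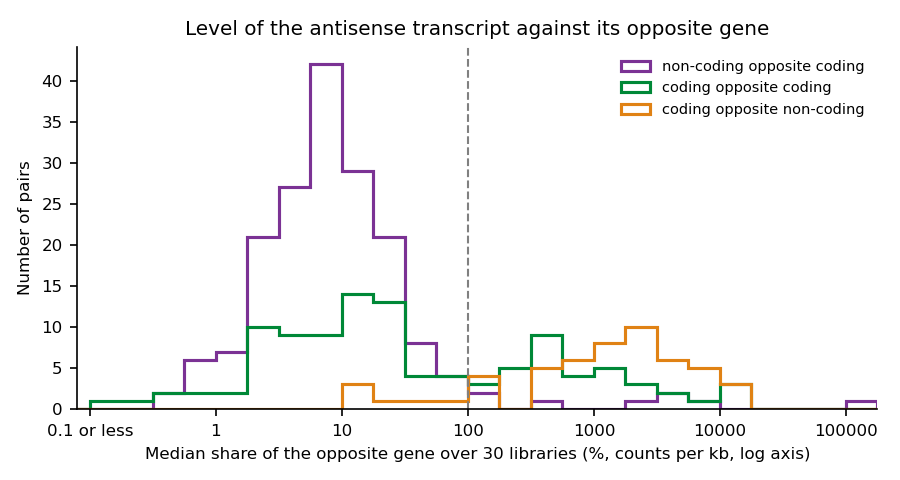
Antisense counts per kilobase as a percent of the opposite gene, median over 30 libraries, on a log scale for the pairs of each kind. Non-coding members opposite coding genes centre near 7.17%, and coding members opposite non-coding genes centre near 1590%.

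At the low end of this range, antisense counts were a very small part of the locus. For the 4 pairs with the smallest shares, summed antisense counts were between 0.114% and 1.254% of the opposite genes per kilobase, with a median library of 0.304%. AT5G42290 had a median of 0.260% of UBL5, a ubiquitin-like protein, AT1G55335 had 0.340% of AGP21, an arabinogalactan protein of the cell wall, and AT5G06595 had 0.422% of AT5G44585. AT3G28899, opposite the ribosomal protein gene AT3G28900, had 34 counts in replicate 1 of 308 -AMF MS, which is 2.39 CPM, and no more than 0.142 CPM in any other library. How far reads of the opposite gene assigned to the wrong strand enter these counts was not tested, and 14 pairs had median shares under 1%.

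The share also differed between libraries. Over the 158 non-coding members below their coding gene in every library, the median share was 3.10% in replicate 2 of Col-0 +AMF LN and 11.5% in replicate 2 of 308 -AMF MS. Relative to each pair's own median, replicate 2 of 308 -AMF MS stood at 1.71 and replicate 4 of Col-0 +AMF MS at 1.61, and they were the highest library for 47 and 38 of the 158 pairs. The next library stood at 1.27 and the lowest at 0.436. By group the median share ran from 4.77% to 6.02% in 308 +AMF LN and from 3.10% to 7.15% in Col-0 +AMF LN, against 6.51% to 7.51% in 308 +AMF MS and 5.84% to 9.63% in Col-0 +AMF MS. Without replicate 4 of Col-0 +AMF MS, 138 members passed on LN in Col-0 (170 with it), 26 between line 308 and Col-0 with AMF (33), 0 between line 310 and Col-0 with AMF (0) and 2 with AMF against without in Col-0 (4). Without replicate 2 of 308 -AMF MS, 2 members passed between line 308 and Col-0 without AMF (8 with it) and 0 with AMF against without in line 308 (0).

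**Figure D2:**
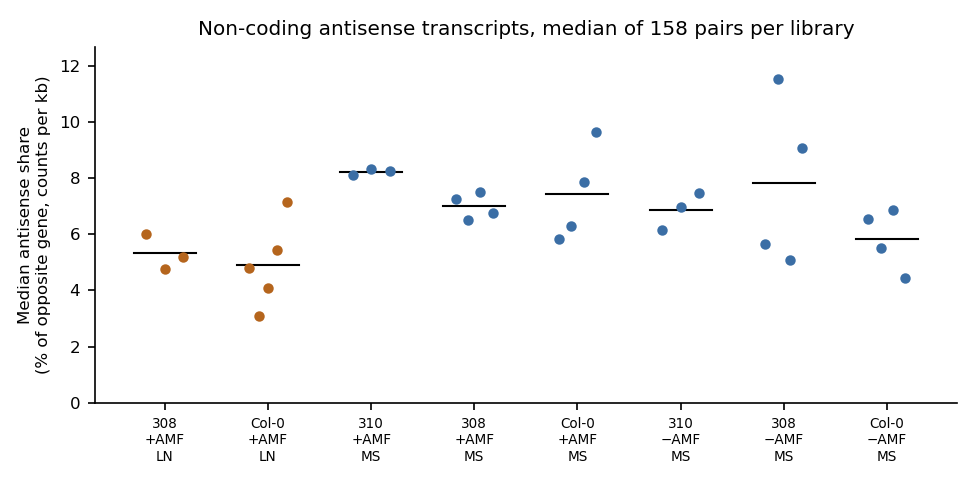
Median share of the opposite gene's level per kilobase in each library, over 158 non-coding members opposite coding genes, by group. Replicate 2 of 308 -AMF MS (11.5%) and replicate 4 of Col-0 +AMF MS (9.63%) stand above the other libraries of their groups, and Col-0 +AMF LN reaches down to 3.10%.

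The 8 members with the highest mean levels were all coding genes. PGIP1, an inhibitor of the pectin-degrading enzymes of fungi, averaged 1135 CPM, and its opposite lncRNA AT5G06865 had no more than 2 counts in any library. AT1G17860, a Kunitz protease inhibitor, averaged 875 CPM, and its median level per kilobase was 13356% of that of the lncRNA AT1G05347. RPL27AB, a ribosomal protein, averaged 571 CPM, AMT1;1, an ammonium transporter of the root, 514 CPM, and LHB1B2, a light-harvesting protein of photosystem II, 421 CPM. The uncharacterized gene AT2G11225 averaged 398 CPM, the lipid-transfer family gene AT1G48750 303 CPM and the EF-hand gene AT1G12310 227 CPM. The 4 largest median ratios per kilobase belonged to the snoRNA AT1G09027, AT5G51585, AT5G28919 and the lncRNA AT2G04215. Only AT5G28919 had an opposite gene with counts in every library (AT5G04905, 5 to 41), with a ratio between 60.9 and 372. The other opposite genes, AT1G68945, AT5G51580 and AT2G04205, had 0 to 13, 0 to 11 and 0 to 9 counts, and 6, 3 and 1 libraries at 0 were left out of their medians, so their order and size are not given. Genes opposite AMT1;1, PGIP1 and AT1G48750 have several transcript rows, so their low counts may be low because shared pairs were dropped.

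Over the 8 groups, 265 of 593 members passed the edgeR quasi-likelihood test (44.7%), against 58.2% of all 16540 genes tested. By kind, 100 of 201 coding members opposite coding genes and 63 of 101 opposite non-coding genes passed. Of the non-coding members, 98 of 276 opposite coding genes and 4 of 15 opposite non-coding genes passed. The smallest p belonged to AT4G01380, RLP50, AT1G48750, AT1G26290, AT3G21305, AT5G51585, AT1G05787 and AT5G01225, of which 7 are coding by annotation and AT1G05787 is not. Of those not described below, the uncharacterized gene AT1G26290 rose on LN by 1.47 ± 0.24 in Col-0 (adjusted p = 0.000582) and by 1.26 ± 0.24 in line 308 (adjusted p = 0.00358). The josephin-like gene AT5G01225 rose by 1.88 ± 0.20 (adjusted p = 2.22e-05) and by 1.22 ± 0.20 (adjusted p = 0.00161). The likeness of a member and its opposite gene was described by the correlation of group means over the 8 groups for 332 pairs. Its median was 0.31, with 130 pairs above 0.5 and 33 below -0.5, and the 8 points share libraries, depth and nutrient medium. With reciprocal pairs counted once, 298 pairs had a median of 0.30, with 114 above 0.5 and 30 below -0.5.

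The comparison with the most differences was LN against MS in Col-0. Of 593 members, 170 passed (28.7%), 61 higher and 109 lower, against 35.8% of all genes, 19.3% higher and 16.5% lower. In 130 of the 170 (76.5%) the libraries of both groups did not overlap, against 79% of all genes that passed. By kind of pair, of the 276 non-coding members opposite coding genes, 4 were higher and 44 lower, with a median log2 change of -0.53. Of the 799 other non-coding genes tested, 77 were higher and 122 lower, with a median of -0.22. The 14921 other coding genes had 3002 higher and 2480 lower with a median of 0.02, and the 2365 of them with a mean under 1 CPM had 359 higher and 141 lower with a median of 0.18. Coding members had 36 higher and 41 lower opposite coding genes and 20 higher and 22 lower opposite non-coding genes. The count minimum that made a transcript a member could be met on 1 medium alone, and more libraries were on MS than on LN. Of the 109 lower members of all kinds, 21 reached it in no LN library, and of the 61 higher ones 2 in no MS library. How many of these were non-coding is not given here. The part of this choice in the split of the non-coding members was not tested.

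The number of non-coding members that fell depended on single libraries and on the fit. Their summed level was 384 to 604 CPM in Col-0 +AMF LN and 604 to 867 CPM in Col-0 +AMF MS, which overlap at 604 CPM. The 867 CPM belonged to replicate 4 of Col-0 +AMF MS. Without that replicate 29 members were lower and 5 higher, with a median of -0.39. Without replicate 2, 3 or 1 of Col-0 +AMF LN, 34, 33 and 35 were lower, without replicate 3 of Col-0 +AMF MS 31, and without replicate 5 of Col-0 +AMF LN 64. With the form of the library name as a covariate, 26 were lower and 5 higher, with a common dispersion 97 were lower, and in the joint fit of all 30 libraries 67. The share of antisense to sense counts moved with these groups, as given above, and its part in the fall was not tested.

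**Figure D3:**
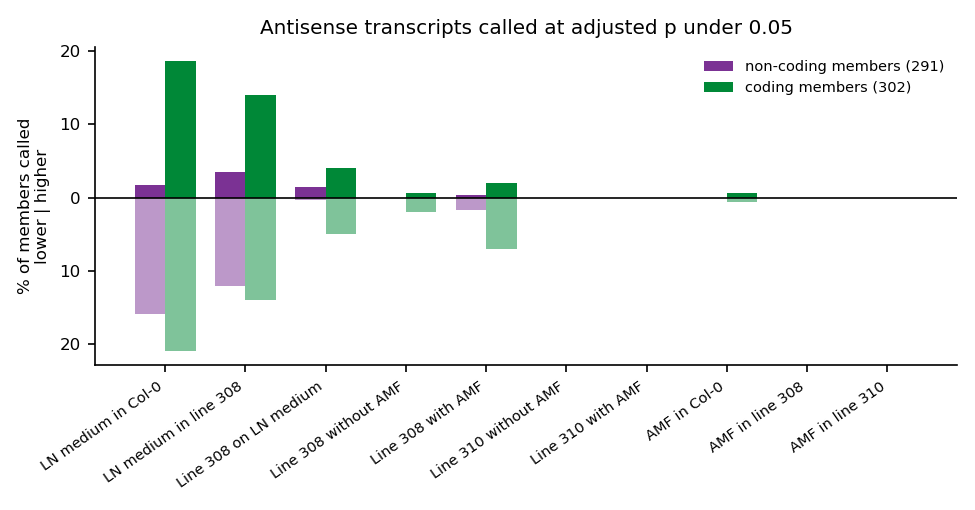
Percent of the 291 non-coding and the 302 coding members that passed the edgeR test at an adjusted p under 0.05 in each comparison, with higher ones above and lower ones below the zero line. The LN comparisons hold most calls (170 members in Col-0, 129 in line 308), and non-coding members there are mostly on the lower side.

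Among single members, AT3G09275 is an lncRNA at chr3:22142893-22144281 on the minus strand, opposite KFB50 (AT3G59940, also KMD4), a kelch repeat F-box protein known to target the entry enzyme of phenylpropanoid synthesis for turnover. It had 0.552, 0.419, 0.501, 0.572 and 0.833 CPM in Col-0 +AMF LN, against 2.82, 2.64, 4.39 and 8.84 CPM in Col-0 +AMF MS. KFB50 had 16.3, 21.1, 14.4, 10.1 and 12.6 CPM in Col-0 +AMF LN, against 75, 75.8, 102 and 145 CPM in Col-0 +AMF MS. KFB50 is itself a member, under AT3G09275. For both genes every LN library was below every MS library, and replicate 4 was the highest of MS. The log2 change was -2.99 ± 0.40 (SE) for AT3G09275 (adjusted p = 0.000134) and -2.73 for KFB50 (adjusted p = 4.52e-06), and both calls held without any 1 library. The median antisense share of the locus was 4.21% per kilobase, between 2.20% and 7.51% over the 30 libraries, and the correlation of group means was 0.99.

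SPL3, a transcription factor that promotes flowering and is a target of miR156, had 0.158, 0.558, 0.430, 0.357 and 0.694 CPM in Col-0 +AMF LN, against 5.30, 4.52, 5.40 and 5.26 CPM in Col-0 +AMF MS. No libraries overlapped, and the log2 change was -3.49 ± 0.27 (adjusted p = 1.8e-06). In line 308 it had 0.288, 0.280 and 0.360 CPM on LN, against 4.54, 2.96, 3.70 and 2.11 CPM on MS with AMF, again without overlap, and the change was -3.41 ± 0.37 (adjusted p = 0.000202). Its opposite lncRNA AT2G33815, which has 2 transcript rows, had no counts in any library.

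At the other end, AT1G05787 had at most 2 counts in any MS library. It reached the minimum of 10 counts only on LN, so that its choice as a member itself favoured a difference between the media. Of the 61 members higher on LN in Col-0, 2 reached 10 counts in no MS library, and of the 109 lower ones 21 reached it in no LN library, AT1G04077, AT4G07030, AT4G07255 and AT5G09565 among them. In line 308 these were 1 of 52 and 10 of 77. It had 2.37, 0.768, 2.72, 2.65 and 2.57 CPM in Col-0 +AMF LN, against 0, 0, 0.0720 and 0 CPM in Col-0 +AMF MS. In counts this was 153 against 1, a ratio of 124 after scaling with a 95% counting interval of 22 to 4944. In line 308 it had 1.3, 0.350 and 1.66 CPM on LN, against 0, 0, 0.142 and 0 CPM on MS, or 46 counts against 2, a ratio of 30.4 (7.95 to 259). Both intervals cover counting alone and leave out the spread between libraries. The edgeR test gave adjusted p = 3.31e-05 in Col-0 and 0.00363 in line 308. In the groups without AMF no library exceeded 0.140 CPM. The opposite gene AT1G23110, with 7 transcript rows, had at most 4 counts in a library and was not tested.

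AT3G21305, which starts in the P1BS-bearing window shown above, had 48.9, 59.1, 37.2, 40.5 and 34.9 CPM in Col-0 +AMF LN, against 6.46, 5.29, 3.24 and 3.35 CPM in Col-0 +AMF MS. Every LN library was above every MS library, and the log2 change was 3.27 ± 0.23 (adjusted p = 1.07e-06). In line 308 it had 45.5, 33.1 and 35.9 CPM on LN, against 6.38, 9.01, 5.41 and 13.6 CPM on MS, also without overlap, with a change of 2.13 ± 0.26 (adjusted p = 0.000368). The methyltransferase gene AT3G21300 on the other strand had log2 changes of 0.14 in both, with adjusted p of 0.412 and 0.404. Per kilobase, AT3G21305 stood between 81.3% and 2105% of AT3G21300 over the 30 libraries.

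RLP50 had 65.1, 70.1, 65.2, 59.7 and 30.3 CPM in Col-0 +AMF LN, against 5.57, 11.5, 11.4 and 9.76 CPM in Col-0 +AMF MS. Replicate 5 was the lowest LN library and still above all of MS, and the log2 change was 2.61 ± 0.27 (adjusted p = 1.8e-05). In line 308 it had 27.9, 24.6 and 26.6 CPM on LN, against 7.24, 6.76, 10.6 and 9.78 CPM on MS, a change of 1.60 ± 0.16 (adjusted p = 0.000123). Its opposite lncRNA AT4G13918 differed by -0.20 and -0.03 on the log2 scale, with adjusted p of 0.291 and 0.864. The level per kilobase of RLP50 was between 67.7% and 985% of AT4G13918.

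AT2G31345, annotated as coding and uncharacterized, had 12.1, 10.9, 5.73, 6.58 and 6.87 CPM in Col-0 +AMF LN, against 1.38, 1.11, 0.432 and 0.534 CPM in Col-0 +AMF MS. The groups did not overlap, and the log2 change was 3.27 ± 0.36 (adjusted p = 2.82e-05). In line 308 the change was 2.43 ± 0.46 (adjusted p = 0.00346), also with no overlap. The gene it faces, emb1381, which is needed for embryo development, changed by -0.08 (adjusted p = 0.607) and -0.15 (adjusted p = 0.292). Within MS, AT2G31345 ranged widely, with 0.282 to 3.47 CPM in Col-0 -AMF MS and 0.352 to 5.18 CPM in 308 -AMF MS.

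Line 308 showed the same comparison with fewer members past the test. Of 593, 129 passed (21.8%), 52 higher and 77 lower, against 31.7% of all genes, 16.7% higher and 15% lower, and 119 of the 129 (92.2%) had no overlap between groups, against 93.8% of all genes that passed. Among the 276 non-coding members opposite coding genes 9 were higher and 35 lower, with a median log2 change of -0.22, while the other non-coding genes had 75 higher and 73 lower with a median of -0.01. The number of lower ones was 21, 22 and 23 without replicate 3 of 308 +AMF LN, replicate 2 of 308 +AMF LN and replicate 3 of 308 +AMF MS, and 53 with a common dispersion. Their summed level was 470 to 562 CPM in 308 +AMF LN and 548 to 594 CPM in 308 +AMF MS, which overlap. Coding members had 27 higher and 19 lower opposite coding genes and 15 higher and 23 lower opposite non-coding genes.

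Of the calls, 74 were made in both genotypes, which is 43.5% of the 170 in Col-0 and 57.4% of the 129 in line 308, and 72 had the same direction, 32 higher and 40 lower. The same overlap over all genes is not given here, so these shares cannot be called particular to the members. The test of the difference itself, the LN effect in line 308 minus that in Col-0, was added after the data had been seen and passed for 21 members (3.54%), against 5.50% of all genes. AT3G09275 and KFB50 were among them, both with the smaller fall in line 308. AT3G09275 had 1.66, 1.19 and 1.08 CPM in 308 +AMF LN, against 3.19, 2.39, 3.06 and 2.46 CPM in 308 +AMF MS, a change of -1.1 ± 0.23 (adjusted p = 0.00614). KFB50 had 31.3, 37.1 and 27.4 CPM in 308 +AMF LN, against 78.5, 72.8, 80.1 and 61.2 CPM in 308 +AMF MS, a change of -1.21 (adjusted p = 0.000159). The difference between the effects was 1.91 (adjusted p = 0.0452) for AT3G09275 and 1.55 (adjusted p = 0.0134) for KFB50.

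Further members changed in line 308 on LN. AT2G34330, a gene annotated as BOBBER-like, had 2.59, 2.87 and 2.88 CPM in 308 +AMF LN, against 0.568, 0, 0.285 and 0.563 CPM in 308 +AMF MS, and rose by 2.93 ± 0.47 (adjusted p = 0.00142). Its opposite gene AT2G34325 rose by 0.75 (adjusted p = 0.00879), and for both the groups did not overlap. AT5G06645, a gibberellin-regulated-like gene opposite the extensin gene EXT10, rose by 2.45 ± 0.54 in line 308 (adjusted p = 0.00734) and by 1.98 ± 0.53 in Col-0 (adjusted p = 0.0118). EXT10 has 2 transcript rows and at most 7 counts in a library. AT4G07255, an lncRNA opposite the phosphorylase family gene AT4G24350, fell by 2.87 ± 0.65 in line 308 (adjusted p = 0.00849) and by 3.04 ± 0.54 in Col-0 (adjusted p = 0.000948), on 7 counts against 71 and 9 against 63. AT4G24350 fell too, with 0 counts in all 3 libraries of 308 +AMF LN, against 12 over the 4 of 308 +AMF MS (adjusted p = 0.0333), and 3 counts over Col-0 +AMF LN, against 17 over Col-0 +AMF MS (adjusted p = 0.0199). AT1G48750 fell by 1.15 ± 0.12 in line 308 and by 2.06 ± 0.15 in Col-0, with 145 to 193 CPM on LN against 340 to 439 CPM on MS in line 308.

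Where both strands passed, they mostly moved the same way. On LN in Col-0, 46 members changed in the same direction as their opposite gene, at 40 loci, and 5 in the opposite direction. In line 308 these were 26 members at 22 loci and 9. For most members that passed, a tested opposite gene did not pass, in 68 of 119 cases in Col-0 and 63 of 98 in line 308. How often other neighbouring genes move the same way was not tested. Among pairs whose opposite gene has 1 transcript row, 39 members at 33 loci in Col-0 went the same way, of which 18 had an antisense share under 5% and 12 a share of 100% or more. Both strands of 5 of these loci are members, so that each entered once under 5% and once at 100% or more. The 5 that went opposite ways held none under 5% and 3 at 100% or more. In line 308, 21 members at 17 loci went the same way, 7 under 5% and 8 at 100% or more, with 3 loci entering under both, and 5 went opposite ways, 1 under 5% and 1 at 100% or more. Pairs that moved together thus included many with a small antisense share, and the part that wrong-strand reads may play in them was not tested.

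**Figure D4:**
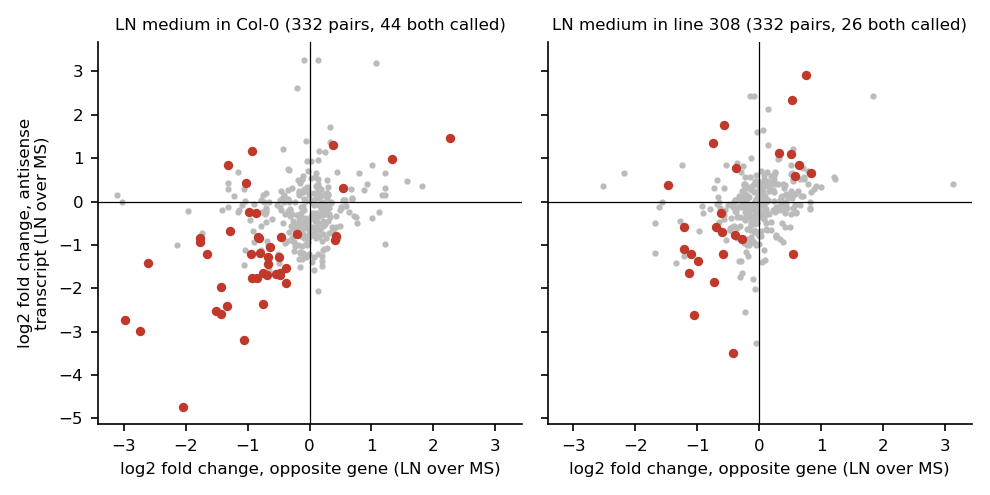
Log2 change on LN against MS of the antisense member (vertical axis) and of its opposite gene (horizontal axis) in Col-0 and line 308, for 332 pairs whose opposite gene has 1 transcript row. A locus whose strands are both members can appear once for each strand. Red points are pairs with both strands past the test, most of which lie at the lower left where both strands were lower on LN.

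Of the pairs with 1 transcript row each that moved apart, the 4 with the largest change of the member are described. SPL15, a transcription factor of the flowering transition, lies at chr3:21444243-21446035 on the minus strand, opposite the G-patch domain gene AT3G57910. SPL15 had 4.50, 4.96, 3.94, 3.5 and 4.1 CPM in Col-0 +AMF LN, against 8.46, 7.10, 8.21 and 7.24 CPM in Col-0 +AMF MS, and AT3G57910 had 14.2, 13.8, 15.4, 15.6 and 14.2 CPM on LN, against 11.6, 11.1, 10.6 and 10.9 CPM on MS. All LN libraries were lower for SPL15 and higher for AT3G57910. The log2 changes were -0.88 ± 0.14 (adjusted p = 0.00049) and 0.41 (adjusted p = 0.00523). In line 308 SPL15 changed by -1.2 ± 0.16 (adjusted p = 0.00063) and AT3G57910 by 0.55 (adjusted p = 0.0115). Over the 8 groups the correlation was -0.92, and SPL15 stood between 48.5% and 283% of AT3G57910 per kilobase.

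AT5G14515, an uncharacterized coding gene of 7 exons, had 3.87, 2.72, 2.86, 3.36 and 3.12 CPM in Col-0 +AMF LN, against 1.17, 0.696, 1.95 and 1.91 CPM in Col-0 +AMF MS. The ARM repeat gene AT5G14510 on the other strand had 3.47, 4.05, 5.08, 4.86 and 4.23 CPM on LN, against 6.81, 8.42, 9.01 and 9.07 CPM on MS. The groups did not overlap on either strand, and the log2 changes were 1.17 ± 0.28 (adjusted p = 0.00594) and -0.93 (adjusted p = 0.000531). In line 308 they were 1.34 ± 0.33 (adjusted p = 0.0125) and -0.75 (adjusted p = 0.0192), and the call of AT5G14515 was lost without replicate 1 of 308 +AMF LN (adjusted p = 0.0581).

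AT5G18150, a methyltransferase-related gene, faces the DnaJ-domain chaperone gene AT5G18140. It had 78.4, 78.6, 72.3, 76.1 and 51.4 CPM in Col-0 +AMF LN, against 38.9, 40.4, 42.8 and 39.1 CPM in Col-0 +AMF MS, while AT5G18140 had 11.8, 17, 14, 15 and 19.6 CPM on LN, against 37.5, 37.4, 38.9 and 41.7 CPM on MS. Replicate 5 of LN was the closest to MS on both strands, and no libraries overlapped. The log2 changes were 0.83 ± 0.12 (adjusted p = 0.000203) and -1.32 (adjusted p = 1.22e-05). The lncRNA AT1G09443, opposite the RING/U-box gene AT1G74370, had 2.23, 1.47 and 1.3 CPM in 308 +AMF LN, against 0.213, 0.211, 0.498 and 0.985 CPM in 308 +AMF MS. It rose by 1.77 ± 0.46 (adjusted p = 0.0157, and 0.0649 without replicate 1 of 308 +AMF LN), and AT1G74370 fell by 0.57 (adjusted p = 0.0087).

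The pairs that fell together with the largest change had very few antisense counts. AT5G09565, opposite AT5G66052, had 1 count in Col-0 +AMF LN, against 34 in Col-0 +AMF MS, so that MS was higher by a ratio of 41.8 (95% counting interval 7.02 to 1700). Such intervals cover counting alone and leave out the spread between libraries. AT5G66052 fell by 2.04 on the log2 scale (adjusted p = 3.42e-07). AT4G07030, opposite DER2.1, a derlin of protein quality control in the endoplasmic reticulum, had 1 count in 308 +AMF LN, against 20 in 308 +AMF MS, a ratio of 15.1 in favour of MS (2.42 to 627), and DER2.1 fell by 0.43 (adjusted p = 0.0154). AT1G04077, opposite the subtilase protease gene SBTI1.1, had 2 counts in Col-0 +AMF LN, against 19 in Col-0 +AMF MS, a ratio of 11.7 (2.82 to 103), and SBTI1.1 fell by 1.05 (adjusted p = 5.12e-05). The test of AT4G07030 lost its call without replicate 2 or 3 of 308 +AMF LN (adjusted p = 0.0509 and 0.0573), and that of AT1G04077 with the library name form as a covariate (adjusted p = 0.0622).

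LHB1B2 and the lncRNA AT2G08665 are both members, each under the other. AT2G08665 had 4.02, 2.02, 3.08, 5.36 and 5.55 CPM in Col-0 +AMF LN, against 16.2, 18.6, 22.2 and 41.2 CPM in Col-0 +AMF MS, and LHB1B2 had 246, 240, 240, 272 and 230 CPM on LN, against 646, 661, 665 and 680 CPM on MS. Neither overlapped. The changes were -2.60 ± 0.32 (adjusted p = 7.36e-05) and -1.42 ± 0.07 (adjusted p = 5.11e-08) in Col-0, and -1.21 ± 0.30 (adjusted p = 0.0122) and -0.59 ± 0.12 (adjusted p = 0.0048) in line 308. Of the shoot markers 4 were tested, and all 4 were lower on LN in both genotypes, with medians of -1.26 in Col-0 and -1.03 in line 308, and the part of shoot tissue in this locus was not tested. The LN effect on LHB1B2 differed between line 308 and Col-0 by 0.86 (adjusted p = 0.00654).

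MPK4, a MAP kinase that restrains salicylic acid defence, has the coding member AT4G01380, a plastocyanin-like domain gene, inside its exons at chr4:569148-570076 on the minus strand. AT4G01380 had 15.7, 22.1 and 22.7 CPM in 308 +AMF LN, against 3.76, 4.15, 3.49 and 3.45 CPM in 308 +AMF MS. In Col-0 it had 21, 18.4, 18.8, 23.9 and 28.6 CPM on LN, against 8.18, 12, 6.70 and 6.94 CPM on MS with AMF. LN was above MS without overlap in both genotypes, by 2.42 ± 0.16 (adjusted p = 1.14e-05) in line 308 and by 1.39 ± 0.19 (adjusted p = 0.000181) in Col-0, and the effects differed by 1.06 (adjusted p = 0.0354). MPK4 itself stayed between 110 and 134 CPM in all 30 libraries and passed none of these tests, with adjusted p of 0.317 in line 308 and 0.609 in Col-0. AT4G01380 stood between 12.2% and 114% of MPK4 per kilobase.

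The same member separated line 308 from Col-0 on MS. It had 3.76, 4.15, 3.49 and 3.45 CPM in 308 +AMF MS, against 8.18, 12, 6.70 and 6.94 CPM in Col-0 +AMF MS, and 5.14, 4.12, 3.67 and 5.46 CPM in 308 -AMF MS, against 10.7, 8.73, 7.03 and 9.77 CPM in Col-0 -AMF MS. Every library of line 308 was below every library of Col-0. The changes were -1.19 ± 0.20 (adjusted p = 0.00648) with AMF and -0.97 ± 0.18 (adjusted p = 0.0244) without. The second call was lost without replicate 2 or 3 of 308 -AMF MS or replicate 1 or 2 of Col-0 -AMF MS, with adjusted p of up to 0.0876. Line 310 had 8.60, 9.97 and 5.87 CPM with AMF and 6.87, 6.68 and 7.67 CPM without, and passed in neither comparison.

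**Figure D5:**
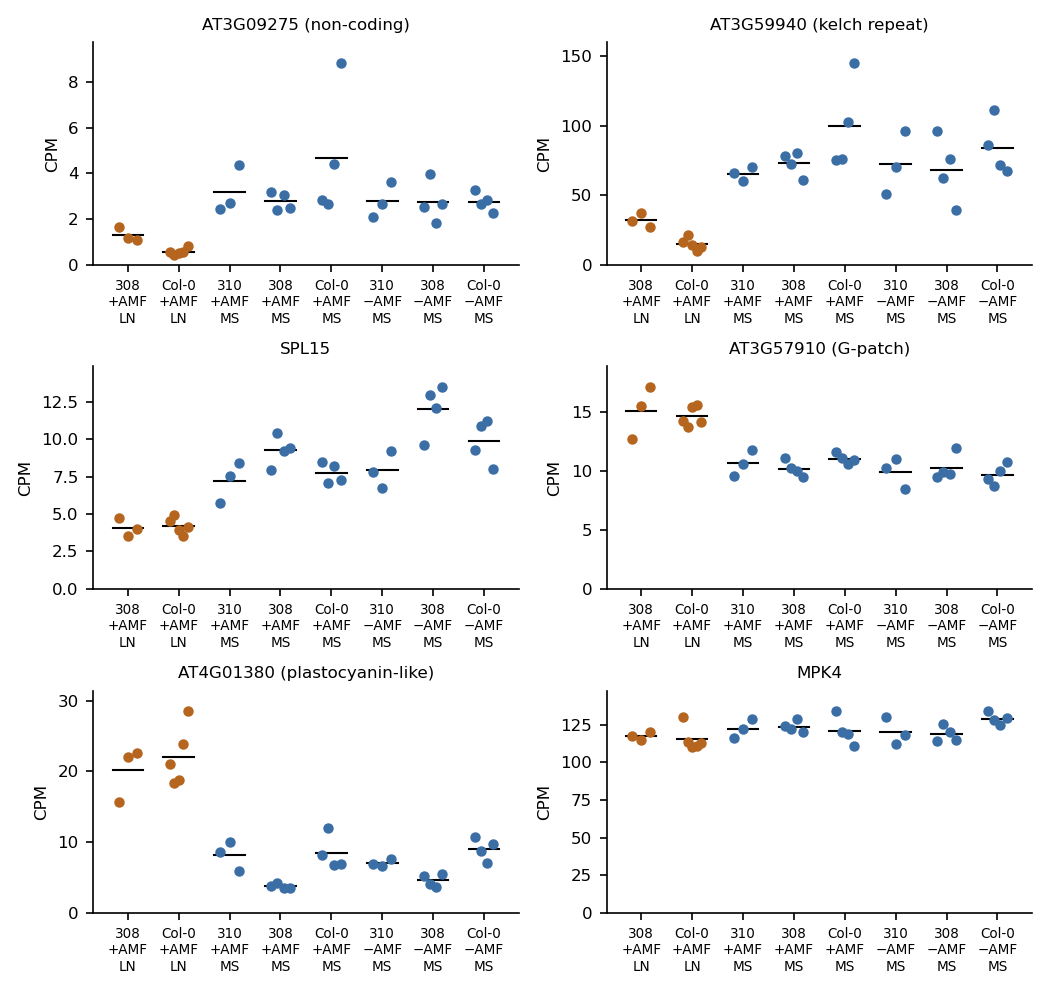
CPM in every library of the 8 groups (points, LN in orange and MS in blue, with bars at group means) for 3 antisense members on the left and their opposite-strand genes on the right. AT3G09275 and KFB50 (AT3G59940) are both low on LN, SPL15 is low where AT3G57910 is high, and AT4G01380 changes while MPK4 stays between 110 and 134 CPM.

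Line 308 with AMF on MS stood apart from Col-0 in 33 members (5.56%), against 6.66% of all genes. There were 7 higher, where the background is 2.58%, and 26 lower, where it is 4.09%. None of the 33 overlapped, as for 95.4% of all genes that passed. Of the 4 shoot markers tested, 3 were lower here, with a median of -0.98, and LHB1B2, with 369, 491, 424 and 406 CPM in 308 +AMF MS, against 646, 661, 665 and 680 CPM in Col-0 +AMF MS, fell by 0.65 ± 0.09 (adjusted p = 0.00149). AT5G51585, an uncharacterized coding gene, had 41.0, 50.1, 44.5 and 35 CPM in 308 +AMF MS, against 17.7, 17.1, 19.9 and 16.1 CPM in Col-0 +AMF MS. All libraries of line 308 were higher, and the change was 1.27 ± 0.12 (adjusted p = 0.000216). Its opposite gene AT5G51580 had at most 11 counts in a library. AT3G22142, a lipid-transfer family gene, had 0.851, 2.46, 2.92 and 0.774 CPM in 308 +AMF MS, against 10.7, 8.42, 10.2 and 3.96 CPM in Col-0 +AMF MS, and fell by 2.24 ± 0.42 (adjusted p = 0.0102). The number of calls was 18 without replicate 3 of 308 +AMF MS, 18 without replicate 3 of Col-0 +AMF MS and 26 without replicate 4 of Col-0 +AMF MS.

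DIR1, a lipid-transfer protein of systemic acquired resistance, had 10.002, 21.5, 14 and 11.1 CPM in 308 +AMF MS, against 39.0, 40.2, 35.8 and 23.8 CPM in Col-0 +AMF MS. The groups did not overlap, and it fell by 1.29 ± 0.24 (adjusted p = 0.00871). Its opposite gene AT5G48480, of the glyoxalase family, changed by 0.28 (adjusted p = 0.148). AT5G08275, an lncRNA opposite the lipid-transfer family gene AT5G55450, had 2.91, 3.17, 3.77 and 3.52 CPM in 308 +AMF MS, against 2.13, 1.67, 1.22 and 0.991 CPM in Col-0 +AMF MS, and rose by 1.14 ± 0.24 (adjusted p = 0.0174). AT5G55450 ranged from 0.915 to 19.8 CPM in 308 +AMF MS and from 13.2 to 42.6 CPM in Col-0 +AMF MS (adjusted p = 0.334). The rise of AT5G08275 did not pass without replicate 3 of 308 +AMF MS or replicate 3 of Col-0 +AMF MS (adjusted p up to 0.0612).

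Without AMF, 8 members passed between line 308 and Col-0 (1.35%), against 1.92% of all genes. Of these 2 were higher (0.846% of all genes) and 6 lower (1.07% of all genes). None of the 8 overlapped, as for 98.4% of all genes that passed. The 2 higher ones were SOFL1, a SOB five-like protein linked to cytokinin, which rose by 1.02 ± 0.17 (adjusted p = 0.0158), and AT5G51585, which rose by 0.80 ± 0.13 (adjusted p = 0.0124). Each call was lost without replicate 3 of Col-0 -AMF MS (adjusted p = 0.0623 and 0.0514). SOFL1 had 3.87, 3.41, 3.53 and 3.92 CPM in 308 -AMF MS, against 2.19, 1.83, 1.69 and 1.59 CPM in Col-0 -AMF MS. AT5G52190, a sugar isomerase family gene opposite the homeodomain gene HDG7, had 0.775, 0.852, 1.13 and 0.490 CPM in 308 -AMF MS, against 1.55, 2.18, 2.25 and 2.68 CPM in Col-0 -AMF MS, and fell by 1.40 ± 0.28 (adjusted p = 0.0358). RLP40, a receptor like protein, had 2.96, 2.13, 2.75 and 1.96 CPM in 308 -AMF MS, against 7.98, 3.45, 5.62 and 8.76 CPM in Col-0 -AMF MS, and fell by 1.38 ± 0.28 (adjusted p = 0.0387). Both of these were lost in 5 of the 8 fits without 1 library, with adjusted p of up to 0.0976 and 0.120. The number of calls was 18, 2 and 3 without replicate 1, 2 or 3 of 308 -AMF MS, and 2, 4 and 1 without replicate 1, 2 or 3 of Col-0 -AMF MS.

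Between the comparisons of line 308 with and without AMF, which share no libraries, 5 members passed in both, all in the same direction, which is 15.2% of 33 and 62.5% of 8. The overlap over all genes is not given here either. AT5G52190 was among the 5 members, with 0.355, 0.704, 0.925 and 0.422 CPM in 308 +AMF MS, against 2.06, 1.32, 2.23 and 1.37 CPM in Col-0 +AMF MS, and fell by 1.53 ± 0.33 (adjusted p = 0.0209). SOFL1 rose by 0.80 ± 0.19 with AMF (adjusted p = 0.0307). These 2 calls with AMF were lost in 3 and 6 of the 8 fits without 1 library, with adjusted p of up to 0.0709 and 0.0908.

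On LN, line 308 and Col-0 were separated by 32 members (5.40%), against 8.64% of all genes, and 28 of them (87.5%) did not overlap, against 89.3% of all genes that passed. There were 16 higher, against 3.49% of all genes, and 16 lower, against 5.15%. The count depended on single libraries. It was 9, 14 and 2 without replicate 1, 2 or 3 of 308 +AMF LN, 11, 11, 6 and 9 without replicate 1, 2, 3 or 4 of Col-0 +AMF LN, and 88 without replicate 5 of Col-0 +AMF LN. DIR1 had 13.9, 7.55 and 1.94 CPM in 308 +AMF LN, against 32.2, 28.3, 32.4, 37.1 and 18.7 CPM in Col-0 +AMF LN, with the highest library of line 308 below the lowest of Col-0, and a change of -1.93 ± 0.44 (adjusted p = 0.0287). AT5G08275 had 3.60, 1.96 and 3.67 CPM in 308 +AMF LN, against 1.1, 1.26, 0.931, 0.5 and 0.764 CPM in Col-0 +AMF LN, and rose by 1.74 ± 0.31 (adjusted p = 0.0134). RLP50 was lower by 1.14 ± 0.23 (adjusted p = 0.0192), and AT3G09275 and KFB50 were higher by 1.17 ± 0.31 (adjusted p = 0.0426) and 1.09 (adjusted p = 0.0146). Of these calls, KFB50 held without any 1 library. DIR1 lost its call in 5 of the 8 such fits (adjusted p up to 0.0745), AT5G08275 in 2 (0.0619), RLP50 in 4 (0.0735) and AT3G09275 in 7 (0.148).

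The snoRNA AT2G06855, with 1.01, 1.19 and 1.51 CPM in 308 +AMF LN, against 0.473, 0.419, 0.358, 0.715 and 0.694 CPM in Col-0 +AMF LN, rose by 1.2 ± 0.32 (adjusted p = 0.0443) and lost its call in 7 of the 8 fits without 1 library (adjusted p up to 0.157). Libraries were selected for poly-A tails, which mature snoRNAs lack, so its level is that of the RNA caught by this selection. SOFL1 and AT5G51585 were higher in line 308 on LN too, by 0.82 ± 0.19 (adjusted p = 0.0293) and 0.50 ± 0.14 (adjusted p = 0.047), each lost in 6 of the 8 fits without 1 library (adjusted p up to 0.0897 and 0.157). AT5G51585 had 53.4, 41.4 and 47.4 CPM in 308 +AMF LN, against 29.99, 42.2, 33.2, 34 and 27.8 CPM in Col-0 +AMF LN, where replicate 2 of Col-0 overlapped with line 308.

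Line 310 had no member past the test, either with AMF, where 0.0302% of all genes passed (0.0242% higher and 0.00605% lower), or without, where 0.0121% passed. At an unadjusted p under 0.05 there were 52 members with AMF (8.77%, against 9.68% of all genes) and 66 without (11.1%, against 10.2%). DESeq2 gave 3 and 4, where 1.15% and 0.963% of all genes passed. Without replicate 3 of 310 +AMF MS 1 member passed. With 3 libraries of line 310 against 4 of Col-0, this does not show that line 310 and Col-0 are alike. AT5G51585 had 25.6, 25.2 and 18.7 CPM in 310 +AMF MS, between the 35 to 50.1 CPM of 308 +AMF MS and the 16.1 to 19.9 CPM of Col-0 +AMF MS, and overlapped with Col-0.

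With AMF against without, 4 members passed in Col-0 (0.675%), 2 higher and 2 lower, against 0.871% of all genes (0.369% higher and 0.502% lower), and none passed in line 308 (0.0121% of all genes) or line 310 (0% of all genes). At an unadjusted p under 0.05 there were 45 members in line 308 (7.59%, against 8.66% of all genes) and 29 in line 310 (4.89%, against 3.3%). DESeq2 gave 2 and 0, where 0.684% and 0.109% of all genes passed. The count in Col-0 was 26, 0, 0 and 2 without replicate 1, 2, 3 or 4 of Col-0 +AMF MS, and 0, 1, 0 and 8 without replicate 1, 2, 3 or 4 of Col-0 -AMF MS. AT1G06045, an uncharacterized coding gene opposite STO, a B-box protein of light signalling, had 2.06, 1.46, 1.87 and 3.58 CPM in Col-0 +AMF MS, against 0.636, 0.211, 0.351 and 0.362 CPM in Col-0 -AMF MS, and rose by 2.49 ± 0.39 (adjusted p = 0.0253). LHB1B2 had 646, 661, 665 and 680 CPM in Col-0 +AMF MS, against 454, 488, 403 and 444 CPM in Col-0 -AMF MS, and rose by 0.56 ± 0.07 (adjusted p = 0.0151). The proline-rich gene AT3G22070 had 16.9, 14.3, 17.7 and 14.3 CPM in Col-0 +AMF MS, against 23.2, 25.6, 25.1 and 24 CPM in Col-0 -AMF MS, and fell by 0.64 ± 0.10 (adjusted p = 0.025).

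The acyl-transferase gene AT5G01210 was the fourth, with 186, 152, 152 and 137 CPM in Col-0 +AMF MS, against 216, 219, 219 and 217 CPM in Col-0 -AMF MS, and fell by 0.48 ± 0.09 (adjusted p = 0.0458). None of the 4 overlapped, as for 100% of all genes that passed. In the 8 fits without 1 library the calls of AT1G06045, LHB1B2, AT3G22070 and AT5G01210 were lost in 5, 4, 6 and 6, with adjusted p of up to 0.105, 0.0669, 0.102 and 0.154. The shoot markers had a median change of 0.33 in this comparison and none passed. The median change of the 276 non-coding members opposite coding genes was 0.33 in Col-0 and -0.20 in line 308, with none past the test in either. Without replicate 4 of Col-0 +AMF MS the first was 0.13, and without replicate 2 of 308 -AMF MS the second was -0.0041. These are the 2 libraries with a high antisense share.

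Genes of small RNA and antisense RNA processing and decay were looked up as a list. Of 23 listed genes of small RNA synthesis, RNA decay and 3′ end control, 12 were tested, and the others did not reach the count minimum in this transcript-wise count. On LN in Col-0, XRN3, a nuclear exonuclease, and MTR4, an RNA helicase of the nuclear exosome, were lower by 0.33 and 0.27 on the log2 scale, and none were higher. These are 16.7% of the 12, against 16.5% of all genes. On LN in line 308, XRN3, MTR4, the helicase HEN2, the Argonaute AGO7 and the dicer DCL1 were lower, DCL1 by 3.43 at 6 counts over the 3 LN libraries against 91 over the 4 of MS, and the others by 0.25 to 0.57. These 5 are 41.7% of the 12, against 15% of all genes. On LN, DCL1 was lower by 3.01 in line 308 than in Col-0. No gene of the list passed in a comparison within MS. FPA, which controls antisense RNA at FLC, is itself opposite a member, the lncRNA AT2G09470, which had 0.141 to 1.47 CPM and passed in no comparison. None of the 48 looked-up genes of phosphate, nitrate, clock or salicylic acid response was opposite a member. Of 3 known or proposed antisense loci, AT1G08667 reached 5 counts in its highest library, and AT1G69572 (FLORE) and AT5G01675 (the COOLAIR locus) reached 1, so none of them was a member.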

How the data were processed

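Root RNA was sequenced from strand-specific poly-A libraries on the DNBSEQ platform. Per the file headers and the methods of the study, the authors counted read pairs per Araport11 transcript with featureCounts v2.0.1 in reverse-stranded mode, and deposited raw counts for each of the 30 Arabidopsis libraries. A pair that fits several transcripts of a gene was not counted, so genes with several transcript rows are undercounted. The sources differ on the other steps. The methods give BBSplit as the aligner and edgeR with a common dispersion for the tests, whereas the tools listed in the labels are FastQC, HISAT2, featureCounts and DESeq2, with TAIR10. Of 36632 genes, 36449 (99.5%) had the same start and end in RefSeq TAIR10.1, from which start windows were read.

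Here counts were summed per gene, and 16540 genes with 10 or more counts in at least 1 library were tested. All adjusted p-values in the report come from the quasi-likelihood test of edgeR 4.0.16 (R 4.3.3, limma 3.58.1) with TMM factors and Benjamini-Hochberg adjustment over all genes tested. Each comparison was fitted on its own 2 groups, and a difference was called at an adjusted p below 0.05. SE was computed from the fold change and its F value. Replicates of a group differed by more than sampling noise, so none were merged. Fits were tested on simulated data. Alternatives were DESeq2 1.42.0, other normalizations, filters and dispersions, a joint fit, a replicate block, the library name form and leaving out each library. Tables and figures were made in Python 3.11.15 (pandas 2.3.3, matplotlib 3.10.9, numpy 2.4.6).

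The members and the gene lists were chosen with earlier results of these data known. Named members were 3 known or proposed antisense loci, the 8 with the highest mean level and the 8 with the smallest p over the groups. To these were added the 2 largest increases and 2 largest decreases per comparison with a mean of 10 counts and no overlap, the 4 pairs with the largest changes in the same and in opposite directions, the 4 largest and 4 smallest ratios per kilobase, and the opposite genes of all of them. The Lotus japonicus libraries of the series were not used here.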

Additional observations from a re-analysis of the deposited data

Results flagged for a closer look

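In groups of 4 or 5 libraries, single libraries stood apart in 21 cases, judged by their gap as a share of the group's range. Where the range is narrow the gap can be small, as for AT1G09027 with 32.4 CPM against 31.6 CPM in the other libraries of Col-0 +AMF MS. Chance alone gives about 1 in 20 groups, many groups were examined, and most cases rest on few counts. The summed level of the non-coding members opposite coding genes had its lowest library in 308 +AMF MS at 548 CPM. AT3G28899 had a library at 2.39 CPM in 308 -AMF MS and one at 0.0696 CPM in Col-0 +AMF MS, each against 0 or nearly 0 in the other libraries of the group. AT1G05787 had single libraries with counts at 0.142 CPM in 308 +AMF MS, 0.0720 CPM in Col-0 +AMF MS and 0.0703 CPM in Col-0 -AMF MS, and its lowest LN library in Col-0 was at 0.768 CPM. AT1G04077 had a highest library of 0.353 CPM in Col-0 -AMF MS and of 0.139 CPM in Col-0 +AMF LN, and AT5G09565 one of 0.0716 CPM in Col-0 +AMF LN. In the same way AT1G55335, opposite AGP21, had 1.68 CPM in replicate 4 of Col-0 +AMF MS, a library with a high antisense share.

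Further libraries that stood high were 3.47 CPM for AT2G31345 and 59.3 CPM for DIR1, both in Col-0 -AMF MS, 439 CPM for AT1G48750 in 308 +AMF MS, 32.4 CPM for AT1G09027 in Col-0 +AMF MS and 47.03 CPM for AT5G51585 in 308 -AMF MS. Libraries that stood low were 30.3 CPM for RLP50 and 51.4 CPM for AT5G18150, both replicate 5 of Col-0 +AMF LN, 4.52 CPM for SPL3 in Col-0 +AMF MS, 0.434 CPM for AT2G34330 in Col-0 -AMF MS and 0.0706 CPM for AT5G42290 in Col-0 -AMF MS.

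The LN effect differed between line 308 and Col-0 for 6 of the named genes, by a test of the difference chosen after seeing the data (edgeR, adjusted over all genes). Line 308 minus Col-0 was 1.91 on the log2 scale for AT3G09275 (adjusted p = 0.0452), 1.55 for KFB50 (0.0134), 1.06 for AT4G01380 (0.0354), 0.94 for AT1G48750 (0.0208), 0.86 for LHB1B2 (0.00654) and -0.77 for AT5G51585 (0.0282). Each of the 6 was lower in every library of 1 medium than in every library of the other in Col-0.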

How the results depend on the processing

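The counts of members on LN were 170 in Col-0 and 129 in line 308, and no value of a named gene reversed under any alternative. The balance within a kind of pair could turn. For line 308 against Col-0 on LN, 3 non-coding members opposite coding genes were higher and 1 lower, with a median of 0.12. The joint fit gave 6 higher and 10 lower, and without replicate 1 of 308 +AMF LN the median was -0.03. With line 308 against Col-0 on LN (32 members), a common dispersion gave 69, the joint fit of 30 libraries 57, the library name form as a covariate 21 and the 100% overlap rule 18. Without AMF (8 members), DESeq2 gave 20, a common dispersion 80, the joint fit 14 and the 100% rule 5. With AMF (33 members), a common dispersion gave 78. For line 310, where none passed, DESeq2 gave 4 and a common dispersion 14 without AMF, and 3 and 17 with AMF. For AMF in Col-0 (4 members), DESeq2 gave 31, no filter 10, a common dispersion 81, the joint fit 15 and the 100% rule 2. For AMF in line 308, where none passed, DESeq2 gave 2 and a common dispersion 17, and in line 310 a common dispersion gave 3. Shares of all genes under the same alternatives are given above only for DESeq2 where no member passed. The other counts are thus no result about the members. The causes of these changes in number were not tested.

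Leaving out 1 library gave 234 to 284 members over the 8 groups, 138 to 205 for LN in Col-0, 93 to 121 for LN in line 308, 2 to 88 for line 308 on LN, 1 to 18 without AMF and 18 to 44 with AMF. It gave 0 to 1 for line 310 with AMF, 0 to 26 for AMF in Col-0, and 0 for line 310 without AMF and for AMF in lines 308 and 310. Of the values of named genes under alternatives, 999 stayed on their side of the threshold and 132 no longer passed.

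The replicate block gave 86 members for line 308 on LN, 211 for LN in Col-0 and 103 for LN in line 308. Of the non-coding members opposite coding genes it gave 71 lower on LN in Col-0, against 44 without the block. In this fit a library whose replicate number occurs in only 1 group cannot inform the difference. Replicate 5 of Col-0 +AMF LN is such a library. Leaving it out, without a block, gave 88 members for line 308 on LN and 205 for LN in Col-0, with 64 non-coding ones lower. The replicate numbers did not pair the samples, since correlations of same-numbered libraries ran from -0.317 to 0.248 and in no comparison were all above 0.1. Few counts limit the 218 members under 1 CPM, where a difference of a few reads decides a call and a missing call does not show equal levels.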
